A study of Homo sapiens and Mus musculus with 15 samples.

Results

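C1q-positive macrophages were described here in RPE/choroid tissue of the mouse eye, in a single-cell RNA-seq library of 24-month-old animals (Old-RPE) and one of 3-month-old animals (Young-RPE). A cell was chosen by its own UMIs (unique molecular identifiers, each marking 1 captured mRNA molecule). It had at least 3 UMIs of C1qa, C1qb and C1qc together, making up at least 0.2% of its UMIs, and no UMI of the lymphocyte genes Cd3d, Cd3e, Cd3g and Cd79a. The 6 pigment epithelium genes Mitf, Rlbp1, Rpe65, Trpm3, Ttr and Tyr had to stay under 3% of its UMIs, and the 4 fibroblast genes Col1a1, Col1a2, Dcn and Lum under 0.3%. Cells with under 200 detected genes, over 10% mitochondrial UMIs or any UMI of 4 hemoglobin genes had been removed. In all 675 cells met the rule among 30865 that passed the quality filters, namely 377 of 15198 in Old-RPE and 298 of 15667 in Young-RPE.

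Both libraries came from C57BL/6J mice with no genetic change and no treatment named, and differed by label in age only. The eye tissue was dissociated with papain and DNase and captured with a 10x Chromium 5′ kit. There was 1 library per age and the number of mice behind each was not given in the sources used here, so no test between ages was possible and no p-value is given. Values are UMIs summed over the cells and scaled to the total of those cells (CPM, counts per 1000000 UMIs), and all intervals are exact 95% intervals that cover counting error only. The library totals were 93559718 UMIs in Old-RPE and 93163820 UMIs in Young-RPE, and 381 barcodes occurred in both libraries, none of them a barcode that both libraries assigned to a macrophage.

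C1q is the recognition molecule of the classical complement pathway. It is assembled from A, B and C chains, and in adult tissues macrophages and microglia are its main producers. Macrophages of the choroid and of the subretinal space lie next to the retinal pigment epithelium, take up debris and lipid from it, and present antigen on MHC class II. The receptor Trem2 signals through the adaptor Tyrobp and is known for a program of lipid handling and lysosomal genes that includes Gpnmb, Spp1, Fabp5, Itgax and Lgals3.

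The macrophages made up 2.48% (2.24 to 2.74) of filtered cells in Old-RPE and 1.90% (1.69 to 2.13) in Young-RPE. They held 1972781 UMIs in Old-RPE and 1165393 UMIs in Young-RPE. The UMIs per cell had a lowest, median and highest value of 617, 4556 and 26920 in Old-RPE, against 500, 2072 and 23731 in Young-RPE. The old macrophages thus had more UMIs per cell, while fibroblast cells ran the other way, with medians of 4514 in Old-RPE and 5610.5 in Young-RPE. Depth and RNA content per cell cannot be told apart here, and shares of cells with a UMI are given below after thinning every cell to 1000 UMIs, unless they are said to be unthinned. That left 342 cells in Old-RPE and 226 cells in Young-RPE, with 35 and 72 shallower cells left out. Median mitochondrial content was close, at 1.18% of UMIs in Old-RPE and 1.22% in Young-RPE.

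Cells near the limits of the rule were counted for each condition. Between 0.2% and 0.3% C1q there were 18 cells in Old-RPE and 18 in Young-RPE, and just below the limit, between 0.1% and 0.2%, there were 15 in Old-RPE and 19 in Young-RPE. The macrophage genes Ms4a7, Trem2 and Pf4 together stood at 1404 and 1455 CPM just inside the limit in Old-RPE and Young-RPE. Just outside it they stood at 1408 CPM in Old-RPE and 268 CPM in Young-RPE. The limit on pigment epithelium genes removed cells unequally between the ages: 177 cells in Old-RPE and 27 in Young-RPE failed that condition alone. Those at 3% to 4% of such UMIs, 51 cells in Old-RPE and 15 in Young-RPE, had the 3 macrophage genes at 1645 CPM in Old-RPE and 1028 CPM in Young-RPE. Inside the limit, at 2% to 3%, were 47 cells with 1946 CPM in Old-RPE and 35 cells with 2780 CPM in Young-RPE. The fibroblast limit alone removed 52 cells in Old-RPE and 56 in Young-RPE, and 12 old and 28 young macrophages had exactly 3 C1q UMIs.

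The label of macrophage was checked against genes that did not select the cells. Ms4a7, a membrane protein of tissue macrophages, stood at 1621 CPM (1565 to 1678) in Old-RPE and 1434 CPM (1366 to 1504) in Young-RPE. After thinning it was detected in 66.4% of the old and 63.3% of the young macrophages, against 1.9% and 0.9% of old and young fibroblast cells. Trem2 reached 1093 CPM in Old-RPE and 688 CPM in Young-RPE, and was detected in 50.9% and 40.3% of thinned cells. Pf4, a chemokine made by many tissue-resident macrophages, ran the other way, at 433 CPM in Old-RPE and 727 CPM in Young-RPE. All 20 genes of a macrophage identity list were measured. They summed to 47356 CPM in Old-RPE and 27317 CPM in Young-RPE, against 965 and 409 CPM in old and young fibroblast cells. The genes did not rise as a set, as 9 of the 20 had a log2 ratio above 0 and the median was −0.09. Only Lyz2 and Ctss, described below, were at least 2-fold higher in Old-RPE. The list includes Csf1r, the receptor for the macrophage growth factor, at 621 and 846 CPM in Old-RPE and Young-RPE, and Adgre1, which encodes F4/80, at 231 and 281 CPM. In cells with MHC class II genes but no C1q UMI (MHC class II cells without C1q) the identity list summed to 15217 CPM in Old-RPE and 9753 CPM in Young-RPE. That list was therefore not particular to the macrophages. The label held in both libraries by Ms4a7, Trem2 and Pf4, which were low or at 0 in those cells and in fibroblast cells.

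**Figure D1:**
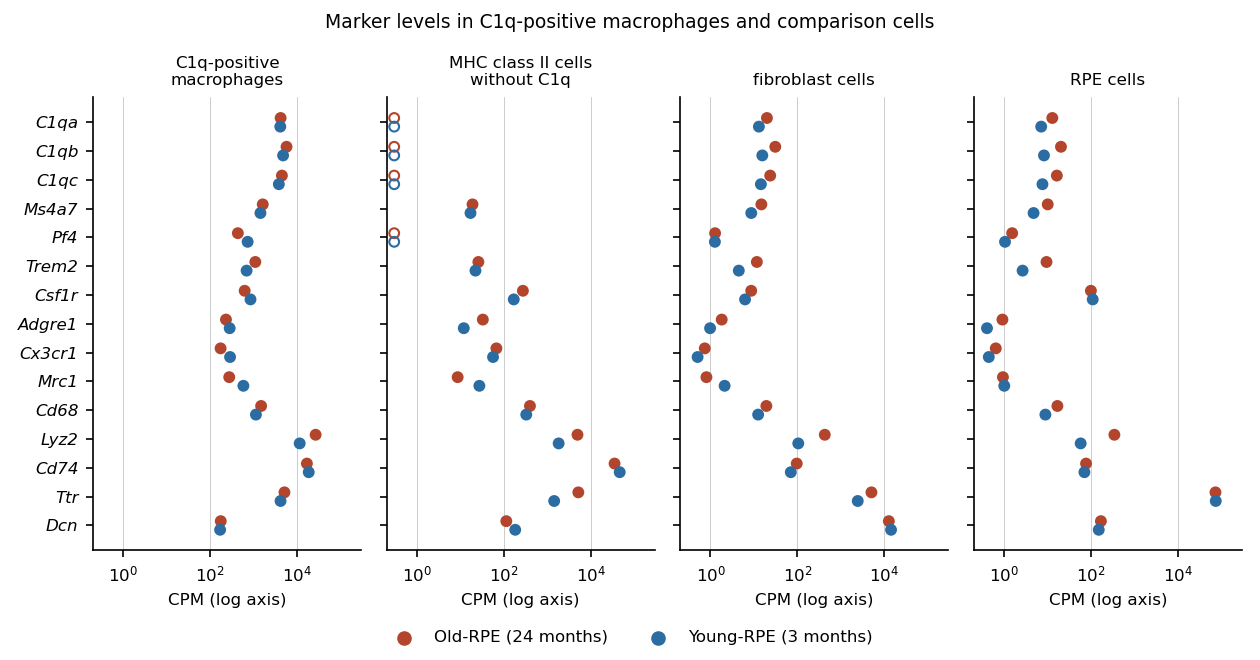
CPM (log axis) of 15 genes in 4 cell sets, with Old-RPE in red above Young-RPE in blue and an open circle at the left edge where no UMI was counted. Ms4a7, Trem2 and Pf4 were high in the C1q-positive macrophages and low or at 0 in the other 3 sets, while Cd74 was also high in MHC class II cells without C1q and Ttr was detected everywhere.

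Genes of other cell types bounded what else the gate could hold. Of the microglia genes, Tmem119 stood at 44.1 CPM in old and 36.0 CPM in young macrophages, below the 60.7 and 96.0 CPM of old and young fibroblast cells, and Sall1 had 2 UMIs in Old-RPE and 0 in Young-RPE. The 12 monocyte genes summed to 822 CPM in Old-RPE and 1358 CPM in Young-RPE, of which Nr4a1, an immediate early gene that macrophages also express, made up 685 and 1260 CPM. The defining monocyte gene Ly6c2 stood at 2.03 CPM in Old-RPE and 12.01 CPM in Young-RPE, and the chemokine receptor gene Ccr2 at 51.7 and 48.9 CPM. Of the dendritic cell list 3 of 12 genes entered and 2 were at least 2-fold higher in Old-RPE, with a median log2 ratio of 2.10. The list summed to 285 CPM in Old-RPE and 96.1 CPM in Young-RPE, against 174 and 140 CPM in old and young fibroblast cells. Its entered genes were Itgax, Batf3 and Cd209a, the last at 40.6 CPM in Old-RPE and 9.44 CPM in Young-RPE. Cd209a passed the limit of 20 CPM only through its Old-RPE level, so its direction followed in part from that limit. Its ratio is also the median of the list. Flt3 and Xcr1 had 5 and 1 UMIs in Old-RPE, against 1 and 0 in Young-RPE. The part of dendritic cells in the Itgax result was not tested. The B cell list summed to 104 CPM in Old-RPE and 231 CPM in Young-RPE, against 167 and 161 CPM in old and young fibroblast cells. Its entered genes Ighm and Cd79b were both at least 2-fold lower in Old-RPE, and Ms4a1 had no UMI in either library. The T and NK cell list summed to 146 CPM in Old-RPE and 112 CPM in Young-RPE, against 13.8 CPM in fibroblast cells of each. Its entered genes ran apart, with log2 ratios of 1.90 for Il7r and −3.05 for Cd4, and the T cell receptor gene Trac had 1 UMI in each library.

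RNA of neighboring cells was present in the macrophage barcodes. Ttr, an abundant pigment epithelium transcript, stood at 5117 CPM in Old-RPE and 4164 CPM in Young-RPE, and after thinning was detected in 93.6% and 89.4% of old and young macrophages, against 96.6% and 85.1% of old and young fibroblast cells. A list of 10 pigment epithelium genes summed to 7703 CPM in old and 6297 CPM in young macrophages, and to 7616 and 3793 CPM in old and young fibroblast cells. Melanocyte genes ran in the other direction, with a sum of 134 CPM in Old-RPE and 1643 CPM in Young-RPE macrophages, against 98.4 and 840 CPM in old and young fibroblast cells. Genes of mural cells, the contractile cells of vessel walls, summed to 325 CPM in Old-RPE and 1055 CPM in Young-RPE. At least 3 UMIs of 4 of these genes, Rgs5, Myh11, Acta2 and Notch3, were carried by 7 old and 12 young macrophages. The part these RNAs play in the results was not tested, and levels in fibroblast and RPE cells are given beside those results they touch.

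The age comparison covered 5830 genes whose mean over the libraries was at least 20 CPM. Of these, 90 were at least 2-fold higher in Old-RPE macrophages, which is 1.54% of the genes, and 171 were at least 2-fold lower, which is 2.93%. The median log2 ratio of Old-RPE over Young-RPE was −0.11 over all genes. Scaling by the median of ratios took out that shift and gave 115 genes higher and 112 lower, so the balance of both directions depended on the scaling. A single cell supplied over 20% of the UMIs in the higher library for 8 of the 90 and 35 of the 171 genes.

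The largest differences in favor of Old-RPE, among genes with a mean of at least 50 CPM, were Retnla, Lyz1, Mfge8, Itgax, Tnfsf13, Gpnmb, Spp1, Il1rn, Il7r, Fabp5, Lyve1 and Syngr1. Gpnmb, a transmembrane glycoprotein of lysosome-rich phagocytes, stood at 3880 CPM in Old-RPE and 795 CPM in Young-RPE, a log2 ratio of 2.29 (2.19 to 2.39). Spp1, which encodes the secreted protein osteopontin, stood at 1209 CPM in Old-RPE and 247 CPM in Young-RPE, a log2 ratio of 2.29 (2.11 to 2.47). Itgax, the CD11c integrin chain, stood at 164 CPM in Old-RPE and 23.2 CPM in Young-RPE (log2 ratio 2.82, 2.25 to 3.45). These genes belong to the program that Trem2 is known for. Mfge8, a bridge between phagocytes and dying cells, reached 323 CPM in Old-RPE and 45.5 CPM in Young-RPE, with a log2 ratio of 2.83 (2.42 to 3.26). Fabp5, a cytosolic carrier of fatty acids, reached 2989 CPM in Old-RPE and 813 CPM in Young-RPE, with a log2 ratio of 1.88 (1.78 to 1.98). Tnfsf13, the cytokine APRIL, stood at 130 CPM in Old-RPE and 19.7 CPM in Young-RPE, and Syngr1, a vesicle membrane protein, at 380 and 108 CPM.

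Some of these genes rested on few cells. Retnla, a secreted product of alternatively activated macrophages, stood at 1243 CPM in Old-RPE and 28.3 CPM in Young-RPE, but was detected in 3.8% of old and 0.9% of young thinned cells, and 38% of its UMIs in Old-RPE came from 1 cell. Il1rn, the antagonist of the interleukin-1 receptor, stood at 137 and 33.5 CPM in Old-RPE and Young-RPE, with 24% and 21% of its UMIs from 1 cell. Lyve1, a hyaluronan receptor of resident macrophages, stood at 84.7 CPM in Old-RPE and 23.2 CPM in Young-RPE, and 33% of the young UMIs came from 1 cell. Lyz1, at 126 CPM in Old-RPE and 11.2 CPM in Young-RPE, is a near copy of Lyz2, so reads can be split between the 2 genes and its ratio is uncertain.

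The 12 genes furthest in the other direction were Pmel, Tyrp1, Mlana, Rgs5, Dct, S100b, Myl9, Hspb1, Hpgd, Gstp1, Adamts1 and Mylk. Pmel, Tyrp1, Mlana and Dct are genes of pigment cells. Pmel stood at 4.56 CPM in Old-RPE and 449 CPM in Young-RPE macrophages. All 12 lower genes had the same direction in fibroblast cells, and 8 of them in RPE cells. Of the 12 genes furthest in favor of Old-RPE, 10 had the same direction in fibroblast cells and 8 in RPE cells. How many of all genes ran either way in those cells was not counted. Pmel was detected in 0.6% of old and 29.6% of young thinned macrophages, beside 0.9% and 16.2% of old and young fibroblast cells. Rgs5, Myl9 and Mylk are genes of contractile mural cells. Rgs5 stood at 30.4 CPM in Old-RPE and 411 CPM in Young-RPE, with 58% and 46% of its UMIs from 1 cell. Its log2 ratio of −3.76 became −0.38 once the 7 old and 12 young cells with mural UMIs were left out. That step was chosen after seeing the data, and Rgs5 itself helped to choose those cells, so the move of its ratio follows in part from the choice. Hpgd, which breaks down prostaglandins, differed from that group in being at least 4 times higher in macrophages than in RPE and fibroblast cells. It stood at 125 CPM in Old-RPE and 418 CPM in Young-RPE, a log2 ratio of −1.74 (−1.97 to −1.51).

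To limit the reach of RNA from RPE and fibroblast cells, the comparison was repeated among 382 macrophage-enriched genes. They were at least 4 times higher in the macrophages than in both RPE and fibroblast cells. Mural and B cells were not part of that condition. Of the 382 genes, 20 were at least 2-fold higher in Old-RPE and 16 at least 2-fold lower, with a median log2 ratio of −0.15. The 15 largest in each direction had intervals clear of 0 in all 30 cases. They were chosen by the size of the same ratios, so this count is not separate support. On the higher side, beyond the genes already named, stood Fcna, Atp6v0d2, Fbxo32, Ctss, Lyz2, Ccl8 and Lgals3. Ctss, the cathepsin that trims the invariant chain of MHC class II, stood at 5688 CPM in Old-RPE and 2276 CPM in Young-RPE, a log2 ratio of 1.32 (1.26 to 1.38). Lyz2, the lysozyme of myeloid cells, stood at 26721 CPM in Old-RPE and 11479 CPM in Young-RPE, a log2 ratio of 1.22 (1.19 to 1.25). Lgals3, a lectin recruited to damaged lysosomes, stood at 2856 CPM in Old-RPE and 1255 CPM in Young-RPE, a log2 ratio of 1.19 (1.10 to 1.27). Atp6v0d2, a subunit of the proton pump that acidifies lysosomes, had 205 CPM in Old-RPE and 65.2 CPM in Young-RPE, a log2 ratio of 1.65 (1.30 to 2.03). Fcna, a ficolin that starts the lectin pathway of complement, had 61% of its young UMIs from 1 cell.

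Some of these genes were also higher in old cells of other types. Lyz2 stood at 428 CPM in old and 105 CPM in young fibroblast cells, and at 346 and 58.0 CPM in old and young RPE cells. The log2 ratio of Ctss was 2.05 in fibroblast cells, that of Itgax 2.90 and that of Trem2 1.38. Of the 15 genes on the higher side, 13 had the same direction in RPE cells, 13 in fibroblast cells and 8 in MHC class II cells without C1q. The share of all genes with that direction in each cell set was not counted. Lyz2 and Ctss were far higher in the macrophages than in those cells at each age, and the part of free RNA in the age ratios was not tested.

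The lower side of the macrophage-enriched genes, with Hpgd furthest, also held chemokines and Tnf. Ccl4, a chemokine that draws T cells and monocytes, stood at 2626 CPM in Old-RPE and 6080 CPM in Young-RPE, a log2 ratio of −1.21 (−1.26 to −1.16). Ccl3, its close relative, stood at 988 CPM in Old-RPE and 2173 CPM in Young-RPE, a log2 ratio of −1.14 (−1.22 to −1.05). Tnf, the gene of tumor necrosis factor, stood at 464 CPM in Old-RPE and 1003 CPM in Young-RPE, a log2 ratio of −1.11 (−1.24 to −0.99). All 3 are targets of NF-kB. Ccl12, a ligand of the monocyte receptor Ccr2, stood at 280 CPM in Old-RPE and 741 CPM in Young-RPE, with a log2 ratio of −1.41 (−1.56 to −1.25). Mrc1, the mannose receptor of resident macrophages, stood at 274 CPM in Old-RPE and 581 CPM in Young-RPE, with a log2 ratio of −1.08 (−1.25 to −0.92). Dab2, an endocytic adaptor, stood at 201 CPM in Old-RPE and 429 CPM in Young-RPE. The remaining genes on this side were Myh11, Ms4a14, Ighm, Dgkd, Dusp2, Lpl, Ifi203 and Apobec3, and of these the muscle myosin gene Myh11 had 34% of its old and 27% of its young UMIs from 1 cell. Myh11 and Ighm are on the mural and B cell lists, cell types that the enrichment did not cover.

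**Figure D2:**
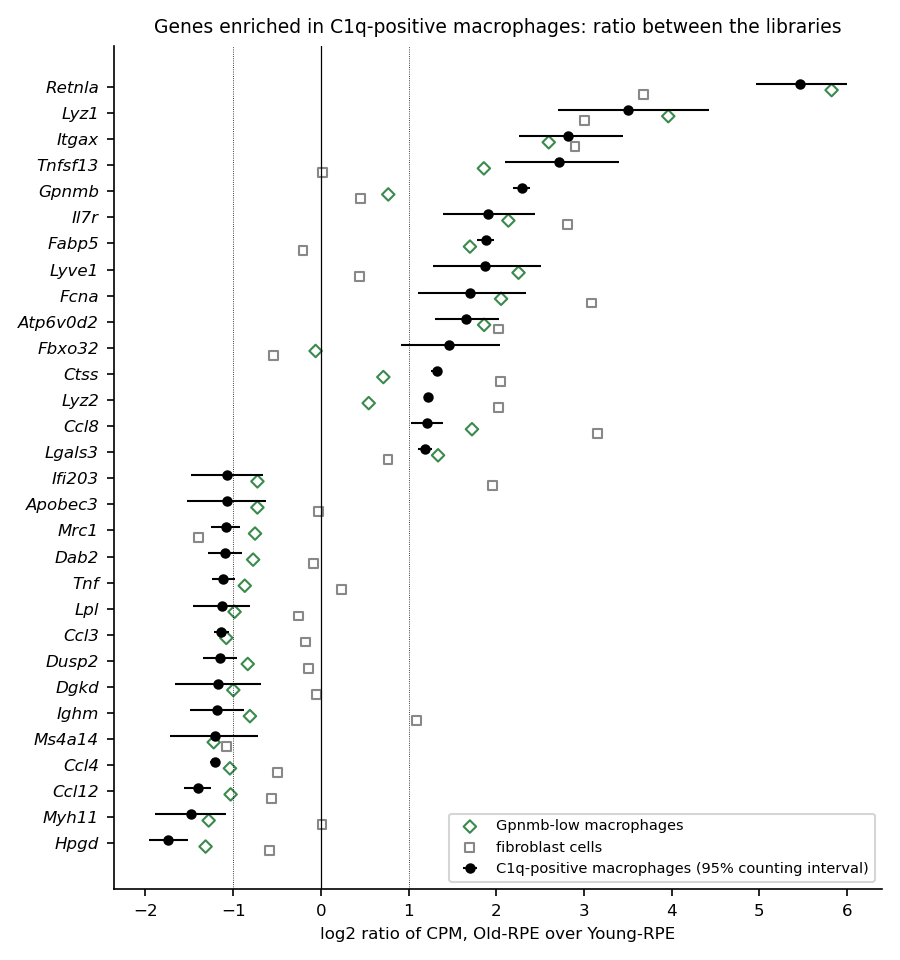
Log2 ratios of Old-RPE over Young-RPE for the 30 macrophage-enriched genes with the largest differences, with 95% counting intervals, diamonds for the ratio in Gpnmb-low macrophages, squares for the ratio in fibroblast cells and dotted lines at 2-fold. In Gpnmb-low macrophages 14 of the 15 higher genes and 15 of the 15 lower genes had the same direction, and in fibroblast cells 13 and 11. The Gpnmb-low cells are part of the set in which the genes were chosen, so their count is not separate support. The share of all genes running either way in fibroblast cells was not counted. Enrichment is over RPE and fibroblast cells only, and Myh11 and Ighm are on the mural and B cell lists.

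Thinning to equal depth kept the directions of the main genes. Gpnmb was detected in 43.6% (38.2 to 49.0) of Old-RPE and 23.5% (18.1 to 29.5) of Young-RPE macrophages, beside 10.3% and 6.9% of old and young fibroblast cells. Fabp5 was detected in 44.7% of old and 21.2% of young macrophages, beside 7.0% and 6.7% of old and young fibroblast cells. Itgax was detected in 10.8% (7.7 to 14.6) of Old-RPE and 0.9% (0.1 to 3.2) of Young-RPE macrophages. These shares lay above those of fibroblast cells in each library. Spp1 was the exception in Young-RPE. It was detected in 27.5% of old macrophages against 15.5% of old fibroblast cells, but in 15.9% (11.4 to 21.4) of young macrophages against 13.3% of young fibroblast cells, so that its young share was at the background. Without thinning, Gpnmb was detected in 58.4% of old and 39.9% of young macrophages. Ccl4 was detected in 48.8% (43.4 to 54.3) of thinned cells in Old-RPE and 68.6% (62.1 to 74.6) in Young-RPE, beside 1.1% of fibroblast cells in each library. Mrc1 was detected in 21.1% (16.9 to 25.8) of thinned cells in Old-RPE and 38.5% (32.1 to 45.2) in Young-RPE, beside 0.1% and 0.2% of old and young fibroblast cells.

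The macrophages were not uniform in either library. MHC class II-high cells, with H2-Aa, H2-Ab1, H2-Eb1 and Cd74 at 1% or more of their thinned UMIs, were 178 of 342 cells in Old-RPE, which is 52.0% (46.6 to 57.4), and 112 of 226 in Young-RPE, which is 49.6% (42.9 to 56.3). That order of the ages turned under stricter RPE and fibroblast limits, with 56.4% in Old-RPE and 57.6% in Young-RPE. Resident-high cells, with 7 resident macrophage genes that include Mrc1, Cd163, Folr2 and Lyve1 at 0.3% or more, were 14.6% (11.0 to 18.8) in Old-RPE and 23.5% (18.1 to 29.5) in Young-RPE, with 45 old and 56 young cells within a factor of 1.5 of that limit. Gpnmb-high cells, with Gpnmb at 0.2% or more, a limit chosen after seeing the data, were 117 cells or 34.2% (29.2 to 39.5) in Old-RPE and 33 cells or 14.6% (10.3 to 19.9) in Young-RPE. Among cells of 2000 to 10000 UMIs these shares were 29.0% in Old-RPE and 6.87% in Young-RPE, and under a stricter C1q limit 32.3% and 7.82%. Some 24 old and 16 young cells lay within a factor of 1.5 of the limit. Each class is a range of a score and not a cell type.

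**Figure D3:**
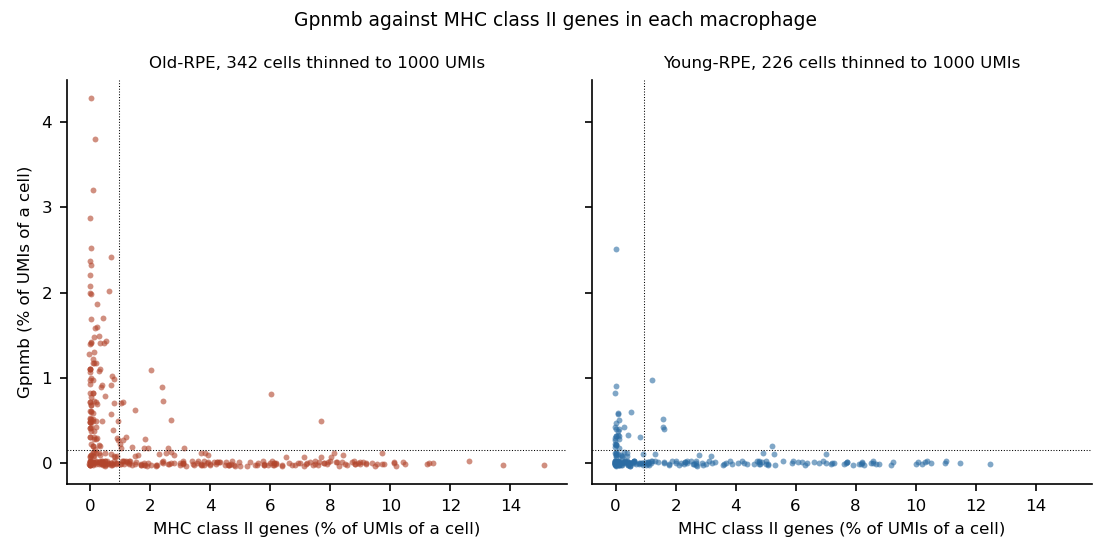
Each point is 1 macrophage thinned to 1000 UMIs (342 Old-RPE cells at left, 226 Young-RPE cells at right), with the MHC class II genes on the horizontal and Gpnmb on the vertical axis, both as percent of UMIs with a small random offset, and dotted lines at the limits of the classes. Cells high for both were few, 19 in Old-RPE and 5 in Young-RPE.

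High Gpnmb and high MHC class II rarely met in 1 cell. Both classes were met by 19 cells in Old-RPE and 5 in Young-RPE, while resident-high and Gpnmb-high met in 2 and 1. Across the 342 old cells the Spearman correlation of Gpnmb with the MHC class II genes was −0.59, and across the 226 young cells −0.38. Gpnmb ran with Fabp5 (0.70 in Old-RPE, 0.49 in Young-RPE), Ctsd (0.67 and 0.40), Lyz2 (0.66 and 0.19) and Spp1 (0.57 and 0.19). It ran against Pf4, at −0.35 in Old-RPE and −0.28 in Young-RPE. These are descriptions over cells that share a library, and the values carry no test.

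Gpnmb-high cells were then set beside the remaining macrophages of their own library. Fabp5 stood at 6387 CPM in Gpnmb-high and 830 CPM in Gpnmb-low cells of Old-RPE, and at 3749 and 256 CPM in Young-RPE. Trem2 stood at 1797 CPM in Gpnmb-high and 646 CPM in Gpnmb-low cells of Old-RPE, and at 1412 and 556 CPM in Young-RPE. The lysosomal protease gene Ctsd stood at 11949 CPM in Gpnmb-high and 2796 CPM in Gpnmb-low cells of Old-RPE, and at 8977 and 2048 CPM in Young-RPE. All 3 were thus higher in the Gpnmb-high cells at each age. Fth1, the iron-storing ferritin heavy chain, followed them, at 60574 and 20559 CPM in Old-RPE and 48263 and 18185 CPM in Young-RPE. Cd74, the invariant chain of MHC class II, was lower, at 3953 CPM in Gpnmb-high and 25372 CPM in Gpnmb-low cells of Old-RPE, and at 4873 and 21711 CPM in Young-RPE. Pf4 stood at 54.0 and 672 CPM in Old-RPE and at 73.4 and 870 CPM in Young-RPE. The classes differed in depth, with a median of 6106 UMIs in Gpnmb-high and 4621 in Gpnmb-low cells of Old-RPE, and 1936 and 4154 in Young-RPE. They also differed in the median share of pigment epithelium gene UMIs, in opposite directions at the 2 ages. It was 0.42% in Gpnmb-high and 0.64% in Gpnmb-low cells of Old-RPE, but 0.85% and 0.41% in Young-RPE. Whether the Gpnmb-high cells of both libraries are alike was not tested.

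**Figure D4:**
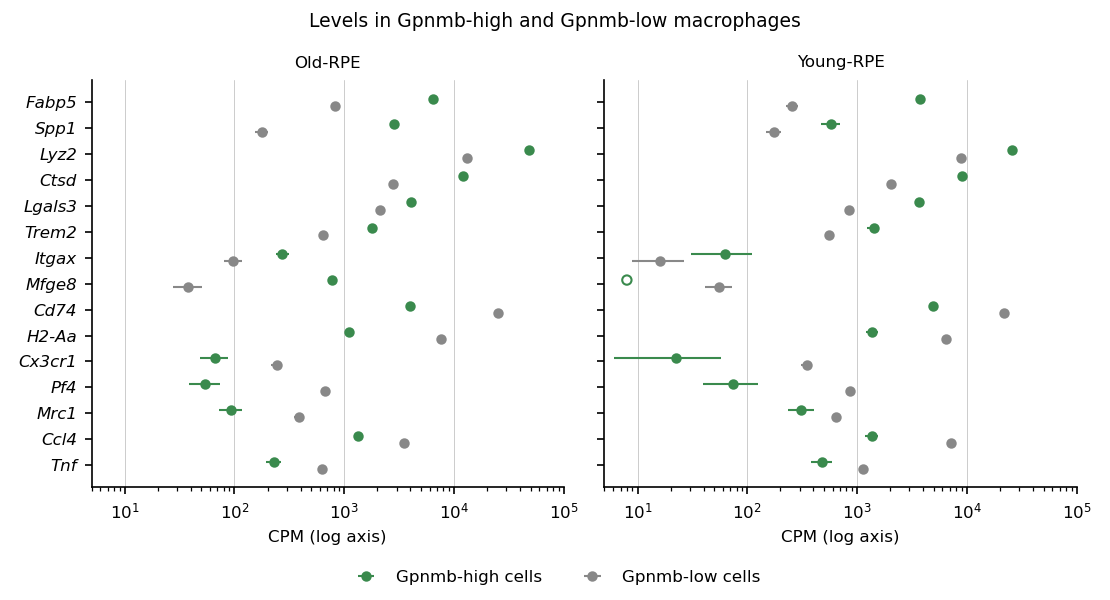
CPM (log axis) with 95% counting intervals of 15 genes in Gpnmb-high (green) and Gpnmb-low (grey) macrophages, Old-RPE at left and Young-RPE at right, with an open circle for Mfge8, which had 0 UMIs in young Gpnmb-high cells. Fabp5, Trem2 and Lyz2 were higher and Cd74, Pf4 and Mrc1 lower in the Gpnmb-high cells of both libraries.

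Between the ages, Spp1 and Mfge8 differed inside the Gpnmb-high cells and hardly outside them. Spp1 stood at 2822 CPM in Old-RPE and 576 CPM in Young-RPE Gpnmb-high cells, a log2 ratio of 2.29. In Gpnmb-low cells it stood at 177 CPM in Old-RPE and 173 CPM in Young-RPE, a log2 ratio of 0.03 (−0.28 to 0.33). Mfge8 stood at 769 CPM in old Gpnmb-high cells, whereas the young ones had 0 UMIs, which allows a level of up to 16.9 CPM by a floor of 3 counts and 20.8 CPM by the exact interval. In Gpnmb-low cells it stood at 38.0 CPM in Old-RPE and 55.6 CPM in Young-RPE. Other genes were higher in Old-RPE in the Gpnmb-low cells too. Fabp5 had a log2 ratio of 1.70 (1.49 to 1.91) there, with 830 CPM in Old-RPE and 256 CPM in Young-RPE. Itgax had a log2 ratio of 2.60 (1.82 to 3.48), with 97.2 CPM in Old-RPE and 16.0 CPM in Young-RPE. Lyz2 had a smaller one of 0.54 (0.51 to 0.58), with 13034 CPM in Old-RPE and 8936 CPM in Young-RPE.

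The lower genes differed among themselves by class, and 13 of the 15 macrophage-enriched lower genes kept the same direction in Gpnmb-high cells. Those cells are part of the set in which the genes were chosen, so the count is not separate support. Within Gpnmb-low cells Ccl4 stood at 3500 CPM in Old-RPE and 7185 CPM in Young-RPE, a log2 ratio of −1.04 (−1.09 to −0.98). Within Gpnmb-high cells it stood at 1326 CPM in Old-RPE and 1355 CPM in Young-RPE, with a log2 ratio of −0.03 (−0.24 to 0.18). Ccl3 stood at 669 CPM in Old-RPE and 610 CPM in Young-RPE Gpnmb-high cells, with a log2 ratio of 0.13 (−0.17 to 0.45). Tnf and Mrc1 were lower in Old-RPE in both classes. Tnf stood at 228 CPM in Old-RPE and 480 CPM in Young-RPE Gpnmb-high cells, and at 624 and 1140 CPM in Gpnmb-low cells. Mrc1 stood at 93.5 CPM in Old-RPE and 311 CPM in Young-RPE Gpnmb-high cells, and at 385 and 649 CPM in Gpnmb-low cells. Whether the ratios differ between the classes was not tested.

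The split by MHC class II, whose low side shares cells with the Gpnmb-high class, is given for the same genes. In MHC class II-low cells Spp1 stood at 2330 CPM in Old-RPE and 270 CPM in Young-RPE, a log2 ratio of 3.11 (2.85 to 3.38). In MHC class II-high cells it stood at 242 CPM in Old-RPE and 213 CPM in Young-RPE, a log2 ratio of 0.18 (−0.12 to 0.49). Trem2 had a log2 ratio of 0.94 (0.78 to 1.10) in MHC class II-low cells and of 0.17 (−0.01 to 0.35) in MHC class II-high cells. Fabp5 was higher in Old-RPE in both, with 1.97 (1.85 to 2.09) in MHC class II-low and 1.41 (1.23 to 1.60) in MHC class II-high cells. Ccl4 was lower in both, with −1.03 in MHC class II-low and −1.29 in MHC class II-high cells. Ccl8, a chemokine ligand of Ccr8 in the mouse, had ratios of opposite sign, with −1.08 in MHC class II-low and 2.79 in MHC class II-high cells.

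Whole gene lists were then read beside the median of −0.11 over all genes. In the lipid and Trem2 list 26 of 28 genes entered, 9 were at least 2-fold higher and 2 at least 2-fold lower in Old-RPE, and the median log2 ratio was 0.63. Besides the genes above, Ctsd stood at 6359 CPM in Old-RPE and 3147 CPM in Young-RPE, and Cst7, an inhibitor of cathepsins, at 80.6 CPM in Old-RPE and 1.72 CPM in Young-RPE, where it rested on 2 UMIs. Not every lipid gene followed. Lpl, which releases fatty acids from lipoproteins, stood at 71.0 CPM in Old-RPE and 155 CPM in Young-RPE, and the scavenger receptor gene Cd36 at 144 and 277 CPM. The same list had a median of 0.37 in fibroblast cells. Within Gpnmb-low macrophages its median was 0.21.

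The lysosome list, with 29 of 30 genes entered, held 4 genes at least 2-fold higher and none at least 2-fold lower in Old-RPE, with a median of 0.33 and with 21 intervals above 0 and 1 below. It summed to 76312 CPM in Old-RPE and 44465 CPM in Young-RPE. Its lowest members were the peptidase gene Ctsc, at 707 CPM in Old-RPE and 898 CPM in Young-RPE, and Tfeb, a regulator of lysosomal genes, at 41.1 and 52.3 CPM. The list's median was 0.17 in fibroblast cells and −0.01 in RPE cells. Of 13 entered matrix and protease genes 3 were at least 2-fold higher and 1 at least 2-fold lower, with a median of 0.42. They include Timp2, an inhibitor of matrix proteases, at 768 CPM in Old-RPE and 415 CPM in Young-RPE, and Fn1, fibronectin, at 64.9 and 1.72 CPM, with 41% of the old UMIs from 1 cell and 2 UMIs in Young-RPE.

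The medians of 3 lists of stimulus-driven genes lay below that of all genes. All 20 NF-kB targets entered, none was at least 2-fold higher and 3 were at least 2-fold lower in Old-RPE, with a median of −0.57. That median was −0.24 with every cell given equal weight and −0.04 within Gpnmb-high cells. The inhibitor Nfkbia stood at 1586 CPM in Old-RPE and 2394 CPM in Young-RPE, while the interleukin gene Il1b, at 1386 and 1560 CPM, differed little. All 19 immediate early genes were below 0, with 3 at least 2-fold lower and a median of −0.56. Their median was −0.22 with equal weights and 0.02 within resident-high cells. Egr1, a transcription factor induced within minutes of a stimulus, stood at 986 CPM in Old-RPE and 2008 CPM in Young-RPE, and Fos at 2686 and 3288 CPM. Of the 12 heat shock genes none was at least 2-fold higher and 3 were at least 2-fold lower, with a median of −0.31 (0.13 within resident-high cells), and the inducible chaperone gene Hspa1a stood at 117 CPM in Old-RPE and 324 CPM in Young-RPE. Immediate early and heat shock genes are also known to respond to tissue dissociation, whose part here was not tested.

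Chemokines split. Of 16 entered genes 3 were at least 2-fold higher and 4 at least 2-fold lower in Old-RPE, with a median of 0.07, yet their sum was 12328 CPM in Old-RPE and 20599 CPM in Young-RPE. The sign of that median depended on the setting. It was −0.24 under the stricter C1q limit and −0.21 after thinning, against 0.18 by median-of-ratios scaling and 0.07 with equal cell weights. Cxcl2, a neutrophil attractant, stood at 3748 CPM in Old-RPE and 6704 CPM in Young-RPE, and Ccl2, the ligand of Ccr2, at 1157 and 1672 CPM. On the higher side Ccl8 stood at 604 CPM in Old-RPE and 262 CPM in Young-RPE, and Ccl6, found in rodents, at 480 and 235 CPM. Ccl5, at 45.6 CPM in Old-RPE and 11.2 CPM in Young-RPE, drew 47% and 54% of its UMIs from 1 cell. Among 19 entered cytokine and growth factor genes, 1 was at least 2-fold higher and 3 at least 2-fold lower, with a median of −0.12.

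Interferon-stimulated genes did not stand out in the macrophages. Of 50 entered genes none was at least 2-fold higher and 2 were at least 2-fold lower in Old-RPE, with a median log2 ratio of −0.24, against 0.53 in fibroblast cells and 0.90 in RPE cells for the same list. Bst2, the antiviral membrane protein tetherin, stood at 623 CPM (589 to 659) in Old-RPE and 586 CPM (543 to 632) in Young-RPE. Its log2 ratio was 0.09 (−0.05 to 0.23) in macrophages, beside 0.68 in fibroblast and 1.10 in RPE cells. Ifi27 stood at 146 CPM in Old-RPE and 132 CPM in Young-RPE macrophages, with a log2 ratio of 0.14 (−0.14 to 0.44), beside 1.07 in RPE cells. The difference between the cell sets was not tested.

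**Figure D5:**
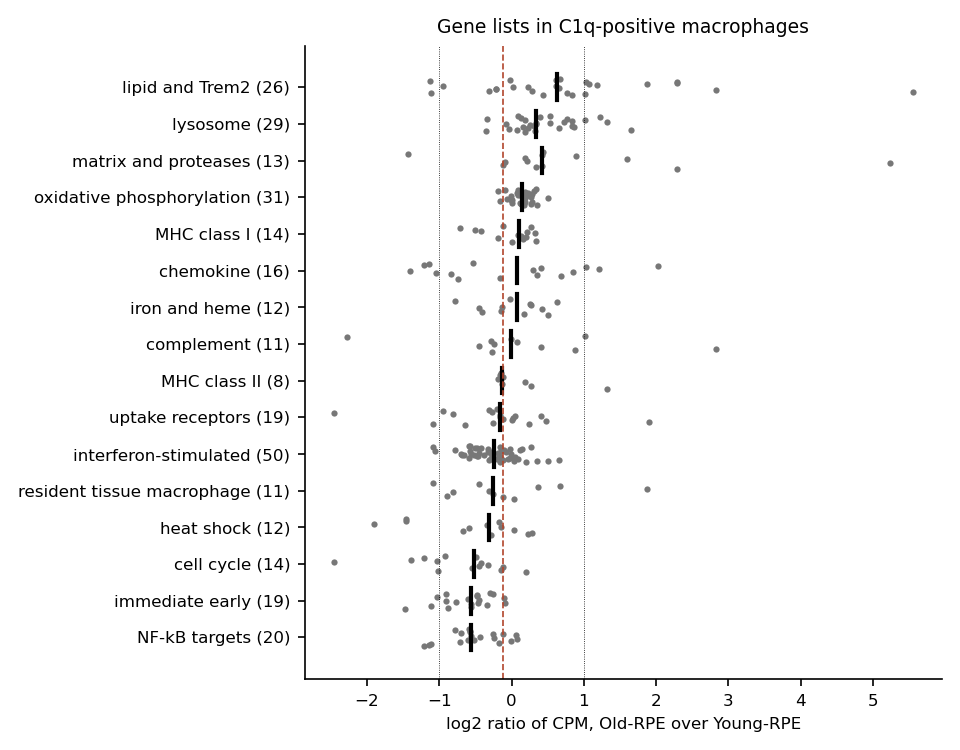
Each point is a gene's log2 ratio of Old-RPE over Young-RPE in the macrophages, for 16 gene lists with the number of genes entered in brackets, a black bar at the list's median, a dashed line at −0.11, the median of all genes, and dotted lines at 2-fold. The lipid and Trem2 list (0.63) and the lysosome list (0.33) sat above the dashed line, and the immediate early (−0.56) and NF-kB (−0.57) lists below it.

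Antigen presentation was near even between the libraries. The 8 entered genes of the MHC class II list had a median of −0.13, and the list summed to 34420 CPM in Old-RPE and 33869 CPM in Young-RPE. The 1 gene at least 2-fold higher was that of the protease Ctss, and without Ctss the sum was lower in Old-RPE. Cd74 stood at 16828 CPM in Old-RPE and 18540 CPM in Young-RPE. The sign of this list's median depended on how cells were weighted, as it was 0.20 with every cell given equal weight. The 14 entered MHC class I genes had a median of 0.11 with none past 2-fold, and the 31 oxidative phosphorylation genes a median of 0.14 with none past 2-fold.

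Resident genes varied in level and direction. Of 11 entered genes 1 was at least 2-fold higher and 1 at least 2-fold lower in Old-RPE, with a median of −0.26, which was 0.55 within MHC class II-high and −1.43 within MHC class II-low cells. The scavenger receptor gene Stab1 stood at 217 CPM in Old-RPE and 382 CPM in Young-RPE, while F13a1, the A chain of clotting factor XIII, stood at 194 and 122 CPM. The complement list, with 11 entered, had a median of −0.01, and its extremes among genes other than Itgax were C4b, at 60.8 CPM in Old-RPE and 30.0 CPM in Young-RPE, and C2, at 10.1 and 48.9 CPM. The C1q chains themselves, which chose the cells, stood at 4179 CPM in Old-RPE and 4106 CPM in Young-RPE for C1qa, at 5716 and 4761 CPM for C1qb, and at 4471 and 3801 CPM for C1qc. Of 12 entered iron and heme genes none was past 2-fold. Among them Fth1 stood at 36170 CPM in Old-RPE and 23330 CPM in Young-RPE, and the iron exporter gene Slc40a1 at 52.7 and 91.0 CPM.

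Cell cycle genes were measured at low levels. Of 14 entered cell cycle genes none was at least 2-fold higher and 5 were at least 2-fold lower in Old-RPE, with a median of −0.52, which was 0.05 among cells of 2000 to 10000 UMIs. Mki67, a marker of dividing cells, stood at 33.5 CPM in Old-RPE and 63.5 CPM in Young-RPE, with 35% of the young UMIs from 1 cell. Cdkn1a, the cell cycle inhibitor p21 that is used as a marker of senescence, stood at 320 CPM in Old-RPE and 503 CPM in Young-RPE, a log2 ratio of −0.65 (−0.82 to −0.49). It was detected in 22.8% of old and 23.9% of young thinned macrophages, and its log2 ratio was −0.23 with every cell given equal weight. Trp53 stood at 43.1 CPM in Old-RPE and 54.9 CPM in Young-RPE, a log2 ratio of −0.35 (−0.84 to 0.14). The 11 entered genes of the arrest and senescence list had a median of −0.06 and none was past 2-fold.

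Compared with MHC class II cells without C1q, 97 in Old-RPE and 66 in Young-RPE, the macrophages carried Ms4a7 and Trem2 at far higher levels, and Pf4 had no UMI in those cells. Of the 12 genes furthest in each direction in the macrophages, 4 of the higher and 11 of the lower had the same direction in those cells. Gpnmb stood at 65.9 CPM in old and 108 CPM in young cells of that set, and Fabp5 at 120 and 170 CPM. Of the 90 genes at least 2-fold higher in old macrophages 57 had the same direction there and 21 were also at least 2-fold higher. Of the 171 lower genes 108 had the same direction and 45 were also at least 2-fold lower. The share of all entered genes that ran either way in those cells was not counted, so these counts have no background beside them. The difference between these cells and the macrophages was not tested, nor was the part of free RNA in their low Gpnmb and Fabp5 levels.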

How the data were processed

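The authors aligned reads to mm10 with Cell Ranger 6.0.1, per the labels, and deposited filtered matrices of UMI counts for 17835 Old-RPE and 16463 Young-RPE barcodes (32285 genes, no normalization). Groups follow the titles and ages, because a condition label of the young library reads as old. The study's hemoglobin step was taken to drop every cell in which a hemoglobin UMI was counted. The bulk TPM tables of the series were not used here. Counts were summed over member cells of a library with scanpy 1.11.5, numpy 2.4.6, scipy 1.17.1 and pandas 2.3.3 in Python 3.11.15 and given as CPM, with exact Poisson, Clopper-Pearson or conditional intervals. Genes with a mean of at least 20 CPM entered. Comparison cells had under 0.2% C1q UMIs and no lymphocyte gene UMI: RPE cells had at least 3% RPE gene UMIs, fibroblast cells at least 1% fibroblast gene UMIs, and MHC class II cells at least 1% MHC class II UMIs and no C1q UMI. Doublets were scored with Scrublet and kept: 4 old and 5 young members scored over 0.25, beside 5.74% and 6.77% of filtered cells.

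Genes were named by rule: the 12 largest and 12 smallest log2 ratios at a mean of at least 50 CPM, the 15 of each among genes at least 4 times higher than in RPE and fibroblast cells, the markers, up to 2 at each end of each list with 5 or more genes entered, and Bst2, Ifi27, Cdkn1a and Trp53. Other genes, named to illustrate a list, were chosen after their values were seen. The members, rules and lists were chosen with earlier results of these data known. Methods were tested on simulated data. Alternatives covered filters, scalings, depth, gene filters and classes.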

Additional observations from a re-analysis of the deposited data

Results flagged for a closer look

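In MHC class II cells without C1q, 6 of the genes furthest in either direction in the macrophages had a log2 ratio of the opposite sign with both counting intervals clear of 0, and the difference was not tested. Of the 12 genes furthest in each direction in the macrophages, 4 of the higher and 11 of the lower kept their sign there, with no count over all genes beside them. Gpnmb had −0.71 there, beside 2.29 in the macrophages. Fabp5 had −0.50, beside 1.88. Spp1 had −0.89, beside 2.29, with 53.7 CPM in old and 99.4 CPM in young cells of that set. Itgax, which dendritic cells also express, had −0.64, beside 2.82, with 118 CPM in old and 183 CPM in young cells of that set. Ccl4 had 0.54, beside −1.21, with 324 CPM in old and 223 CPM in young cells of that set. Rgs5, a mural cell gene, had 2.49, beside −3.76, with 192 CPM in old and 34.3 CPM in young cells of that set. Gpnmb, Fabp5 and Spp1 were also detected in fibroblast cells of both libraries. The part of free RNA in the levels of MHC class II cells without C1q was not tested.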

How the results depend on the processing

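No paired analysis was possible because each age had 1 library, and no fit or test could be made. For the same reason animals, libraries and capture runs cannot be told apart from age, and fewer molecules per young cell limit what its shares can show. Of 72 named genes tried under 11 settings, 2 with a main interval clear of 0 changed sign in any. These were Itgam, with a log2 ratio of −0.033 in cells of 2000 to 10000 UMIs and −0.13 after thinning, and Myh11, with 0.082 when each cell weighed equally. Sign changes of genes whose main interval held 0, such as Bst2, Ifi27 and Trp53, were not counted. The splits by class were not among the settings for single genes. The causes of the moves below were not tested unless the setting itself is the cause.

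The share of macrophages was 2.61% in Old-RPE and 1.29% in Young-RPE at 2000 to 10000 UMIs. It was 1.51% in Old-RPE and 1.07% in Young-RPE with RPE genes under 1% and fibroblast genes under 0.1%, and 2.05% and 1.22% with at least 10 C1q UMIs and 0.5%. Genes at least 2-fold higher and lower in Old-RPE numbered 115 and 112 by median-of-ratios scaling, 138 and 230 with equal cell weights, 306 and 596 after thinning, and 664 and 2791 over all genes with a UMI. At 1.5-fold they numbered 276 and 669, and at 3-fold 34 and 34.

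The MHC class II list had a median log2 ratio of 0.20 with equal cell weights, 0.15 after thinning, 0.27 within MHC class II-low and 0.26 within Gpnmb-low cells, against −0.22 under the stricter RPE and fibroblast limits, −0.25 under the stricter C1q limit and −0.015 by median-of-ratios. The cell cycle list had 0.055 at 2000 to 10000 UMIs, and −0.11 and −1.55 within MHC class II-high and -low cells. The immediate early list had −0.67 and −0.62 under the stricter RPE and C1q limits, −0.22 with equal weights, −0.32 after thinning, −0.74 within MHC class II-low and −0.41 within Gpnmb-low cells. The NF-kB list had −0.24 with equal weights and −0.85 within MHC class II-low cells. The chemokine list had −0.24 under the stricter C1q limit, and 0.30 and −1.03 within MHC class II-high and -low cells. Within the same classes the resident list had 0.55 and −1.43 and the lipid and Trem2 list 0.14 and 0.89. The lysosome list had 0.15 within MHC class II-high cells. Within Gpnmb-low cells, a class chosen after seeing the data, the lipid and Trem2 list had 0.21 and the lysosome list 0.21.

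At 2000 to 10000 UMIs, MHC class II-high cells were 61.0% in Old-RPE and 58.8% in Young-RPE, Gpnmb-high cells 29.0% and 6.87%, and resident-high cells 16.4% and 30.5%. Under the stricter RPE limit MHC class II-high cells were 56.4% in Old-RPE and 57.6% in Young-RPE, and under the stricter C1q limit 54.5% and 56.4%, so that the order of the ages turned, with Gpnmb-high cells at 32.3% and 7.82%. With limits of 0.5% and 2%, MHC class II-high cells were 62.6% and 41.5% in Old-RPE and 58.9% and 39.8% in Young-RPE. With limits of 0.2% and 0.5%, resident-high cells were 21.6% and 8.48% in Old-RPE and 34.96% and 10.2% in Young-RPE.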
